A study of Homo sapiens with 9 samples.

Results

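Transcripts of coagulation factor V (F5) and of 8 clotting regulators were followed in the established human ovarian cancer line OVCAR5. The 9 genes are F5, F3, TFPI, TFPI2, THBD, PROS1, PROCR, F2R and F2RL1, chosen by name out of 60649 genes in the table. F5 was picked because it was lower in both other groups than in the libraries labelled NC, so its values against NC are given as a description with no test, and the other 8 genes were each tested. RNA sequencing covered 9 libraries, with 3 labelled NC, 3 labelled SM2 and 3 labelled SM4. The labels make NC the control and give SM2 and SM4 a METTL3 knockdown, but these roles are in doubt. METTL3 is the catalytic subunit of the complex that writes N6-methyladenosine (m6A) into RNA. The knockdown cells were stable lines made with lentivirus carrying a short hairpin RNA and kept under puromycin selection. NC is labelled parental, although a control hairpin is given in the study's methods, and no label tells which hairpin SM2 or SM4 carried. Nothing states that the 3 libraries of a group came from separate cultures, so the p-values measure the spread between these libraries, which may be technical.

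Levels are normalized read counts scaled to library size (CPM), where 1 CPM stood for 43.8 to 63.2 counts per library. Library totals ranged from 44103272 to 63693728 counts. METTL3 mRNA went against the knockdown labels, at 34.4 to 36.6 CPM in NC, 37.1 to 40.0 CPM in SM2 and 57.5 to 62.4 CPM in SM4. SM4 was higher than NC by 0.75 on the log2 scale (SE 0.0539, adjusted p = 2.21e-09, edgeR), so groups are called by their labels and no direction below is read as the effect of less METTL3. TOX4, whose exons overlap those of METTL3 on the opposite strand, was at 99.8 to 104.6 CPM on average in the groups, and with strand use unknown its part in the METTL3 count was not tested. The study's own gene table fits these counts when the libraries labelled SM4 are taken as its non-targeting control, with NC and SM2 as its knockdown lines, and not when NC is. That table puts METTL3 at 0.75 and 0.63 below its control in the knockdown lines, on the log2 scale. Here NC and SM2 lay below SM4 by 0.75 and 0.63. Every value against NC is therefore a difference between libraries as labelled, and NC may not be the control. Words such as fell and rose below give only the side of NC on which a value lies. Differences seen from SM4 are set out after the single genes and with the wider clotting list. SM2 replicate 3 stood apart from the other libraries of its group, since its 2 replicate pairs had a chi-square per degree of freedom of 13.8 and 16.7, against 4.21 to 6.04 in the other 7 pairs. Leaving it out kept the number of regulators called in each comparison below, at 6 in SM2, 5 in SM4 and 3 between them. All 9 libraries are labelled OVCAR5, but another of their labels names each SM4 library as a different OVCAR line. All 7 epithelial markers were at 1 CPM or more.

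Blood clotting starts when tissue factor, the product of F3, meets its plasma enzyme on a cell surface. The resulting protease cascade makes thrombin, and factor V, once cleaved, is the cofactor that lets factor Xa do so efficiently. Brakes act at each step: TFPI blocks the tissue factor complex, while thrombomodulin (THBD), the endothelial protein C receptor (PROCR) and protein S (PROS1) serve the protein C pathway, which destroys activated factor V. Thrombin and related proteases also signal to cells by cleaving the receptors encoded by F2R and F2RL1. Tissue factor is known in many carcinomas, ovarian carcinoma included, while most plasma clotting factors are made by the liver.

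Among the 8 regulators tested, F3, THBD, PROCR and F2RL1 were lower in both SM2 and SM4 than in NC, and PROS1 was higher in both. TFPI was higher in SM2 alone among the calls against NC, and F2R and TFPI2 passed in neither. In SM2 6 of 8 were called (2 higher, 4 lower), while 22.3% of all 19674 genes tested were called (12% higher, 10.3% lower). In SM4 5 of 8 were called (1 higher, 4 lower), against 21.2% of all genes (11% higher, 10.2% lower). Their median log2 fold change was -0.04 in SM2 and -0.13 in SM4, where the median of all genes was -0.0037 and -0.0011. Both comparisons use the same NC libraries, so calls in both are not independent. The share of all genes called in the same direction in both was not counted. Without NC replicate 1, SM4 replicate 1 or SM4 replicate 2, 3 of the 8 were called in SM4.

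**Figure D1:**
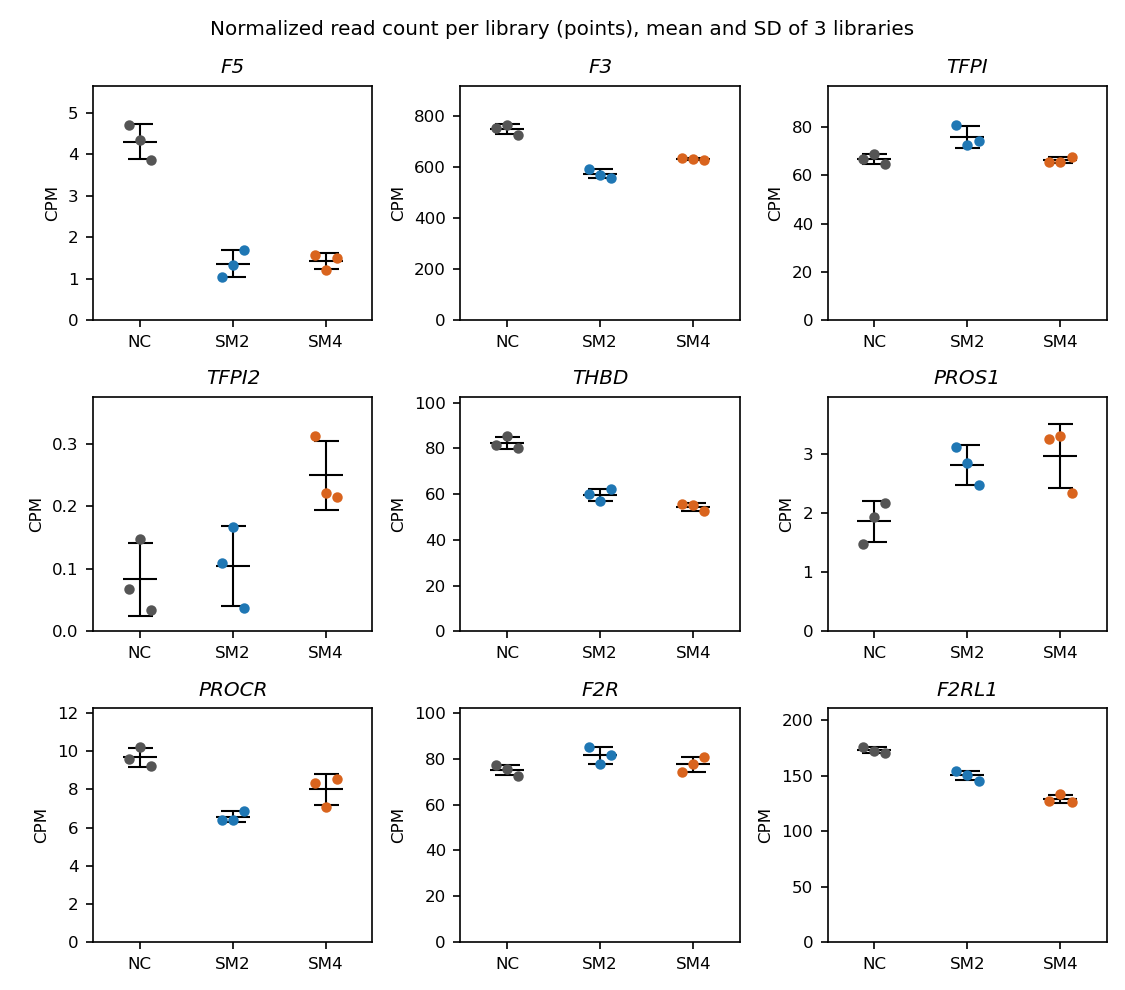
CPM of the 9 genes (vertical axes, each from 0) in the NC, SM2 and SM4 groups. Points are libraries and bars give the mean and SD of 3 libraries. F5, F3, THBD, PROCR and F2RL1 lie lower in all 6 SM2 and SM4 libraries than in any NC library, and PROS1 lies higher. F5 was picked for its fall, and how many of all genes separate in this way was not counted.

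F5 encodes the factor V cofactor (ENSG00000198734.12, chr1:169511951-169586588, minus strand, GRCh38). Its level was 4.70, 4.34 and 3.86 CPM in the NC libraries, 1.05, 1.33 and 1.70 CPM in SM2, and 1.58, 1.20 and 1.50 CPM in SM4. The lowest NC library thus lay above every SM2 and SM4 library. The means were 4.30 ± 0.421 CPM in NC, 1.36 ± 0.325 CPM in SM2 and 1.43 ± 0.199 CPM in SM4 (SD, n = 3). F5 was 3.13-fold lower in SM2 than in NC (log2 fold change -1.65, 95% interval -2.03 to -1.27). In SM4 it was 3.01-fold lower (log2 fold change -1.59, interval -1.96 to -1.22). Without SM2 replicate 3, which stood apart, the log2 fold change in SM2 was -1.84. The libraries of SM2 and SM4 overlapped, and the log2 difference of SM4 from SM2 was 0.06 with an interval of -0.35 to 0.47. F5 was a low transcript, with 206 to 236 counts per library in NC and 48 to 96 counts in the other groups. In bulk RNA, fewer cells with the transcript and less of it per cell cannot be told apart.

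The F5 mRNA is long and has an unusual internal exon. Its canonical GENCODE transcript has 9132 bases in 25 exons, and exon 13 (chr1:169540294-169543114) alone spans 2821 bases, where the median longest internal exon of 12788 genes was 218 bases. That exon encodes most of the B domain, the part of factor V that is cut away on activation. Because the series concerns the m6A writer, the transcript was searched on its own strand for the m6A consensus, written NNACN, with A or G as each of its first 2 bases and any base but G as its last. F5 held 218 matches, or 23.9 per kb, above 99.6% of 13785 genes, whose median was 13.7 per kb. Exon 13 held 87 of them at 30.8 per kb, compared with 20.8 per kb in the other exons. The kinds of match were uneven. The most frequent in exon 13 were AGACA (21 of 32 in F5), AGACC (19 of 29), AAACC (10 of 26) and GAACT (9 of 18). Of the kinds that begin with GGAC, exon 13 held 1 of 17 GGACA, 4 of 9 GGACC and 0 of 8 GGACT. m6A itself was not measured in these libraries, and a match to 5 letters is not a methylated site.

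The coding stretch of 240 bases with the most matches lies in exon 13 and is shown because its repeats carry them. It covers chr1:169540940-169541179 on the minus strand (GRCh38). Capitals mark the 17 matches, of which those that adjoin run together.
F5 coding stretch: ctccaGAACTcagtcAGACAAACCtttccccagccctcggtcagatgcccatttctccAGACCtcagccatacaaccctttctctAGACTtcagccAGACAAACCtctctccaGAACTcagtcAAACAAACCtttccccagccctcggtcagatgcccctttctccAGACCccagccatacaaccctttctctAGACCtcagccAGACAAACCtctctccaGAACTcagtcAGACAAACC
The same short units recur along the stretch, each with its own matches. Among the other 8 genes, the density ran from 11.1 per kb in TFPI to 16.5 per kb in F3, so none approached that of F5. Of the genes lower in both groups, F3 held 16.5, PROCR 15.6, F2RL1 12.2 and THBD 11.6 per kb. PROS1, which was higher in both, held 13.3 per kb. Of the 138 genes in the top 1% by density, 8.70% were called lower in SM2 and 5.80% in SM4, while 13.5% and 13.4% of all genes compared were called lower. They were also called higher, at 10.9% against 15.9% in SM2 and 9.42% against 14.7% in SM4, and no test was made of either. The genes were not matched for level or length, and the part of density in the difference of F5 was not tested.

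**Figure D2:**
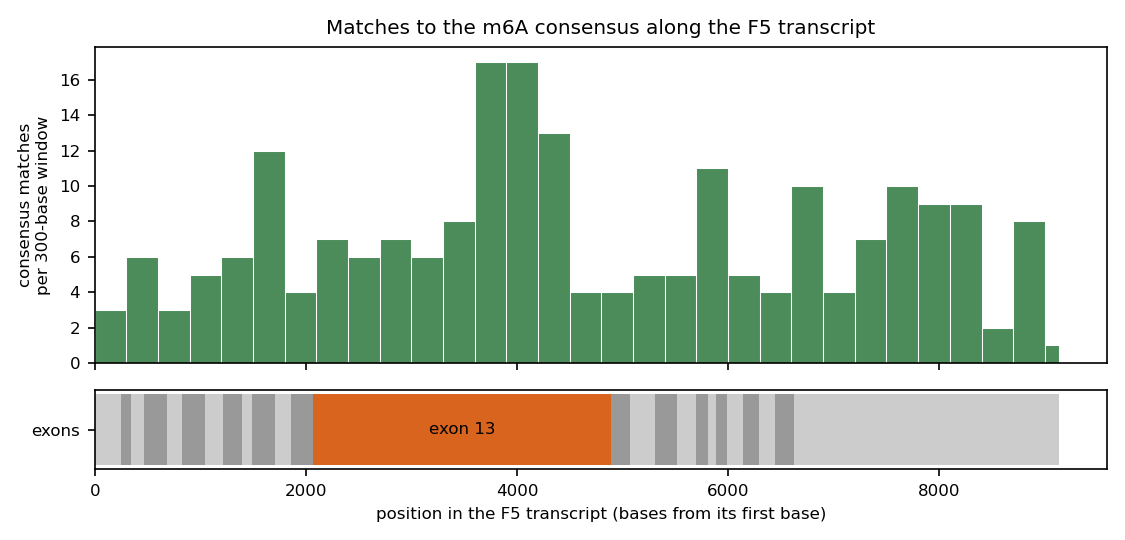
Matches to the m6A consensus in windows of 300 bases (bars) along the canonical F5 transcript, by distance from its 5′ end, above its exons in alternating grey with exon 13 in orange. Exon 13 holds 87 of the 218 matches.

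F3 encodes tissue factor (ENSG00000117525.14, chr1:94529173-94541759), and it was the highest of the 9 genes per length of exon. Its level was 756, 766 and 729 CPM in NC, 594, 571 and 559 CPM in SM2, and 637, 634 and 629 CPM in SM4. No library of one group overlapped another group. F3 fell in SM2 by 0.38 on the log2 scale (SE 0.0386, adjusted p = 3.18e-07, edgeR) and in SM4 by 0.24 (SE 0.0386, adjusted p = 7.83e-05, edgeR). The fall was smaller in SM4, which lay above SM2 by 0.14 (SE 0.0386, adjusted p = 0.0187, edgeR), in a comparison where 12.8% of all genes were called. That call was lost without SM2 replicate 2 (adjusted p = 0.071) and without SM4 replicate 1 (0.0914), 2 (0.0573) or 3 (0.0558), with a difference of 0.14 each time.

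TFPI encodes the main inhibitor of the tissue factor complex (ENSG00000003436.16, chr2:187464230-187565760). It was at 66.7, 68.8 and 64.7 CPM in NC, 80.9, 72.5 and 74.3 CPM in SM2, and 65.6, 65.6 and 67.7 CPM in SM4. SM2 stood above both other groups, whose libraries overlapped. TFPI rose in SM2 by 0.19 on the log2 scale (SE 0.0504, adjusted p = 0.0102, edgeR), but the call was lost without NC replicate 3 (0.16, adjusted p = 0.0598) or SM2 replicate 1 (0.14, adjusted p = 0.0633). SM4 differed from NC by -0.01 (interval -0.11 to 0.10, adjusted p = 0.936, edgeR), a sign that turned under 3 alternatives. SM4 lay below SM2 by -0.19 (SE 0.0502, adjusted p = 0.0124, edgeR). That call was lost without SM2 replicate 1 (adjusted p = 0.0682), SM4 replicate 1 (0.0766) or SM4 replicate 2 (0.055).

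TFPI2 encodes a related Kunitz-type protease inhibitor (ENSG00000105825.14, chr7:93885396-93890753) and was close to its detection limit. It had 3, 8 and 2 counts in NC, 5, 8 and 2 counts in SM2, and 19, 14 and 11 counts in SM4. Every SM4 library lay above every other library, at 0.215 to 0.313 CPM against at most 0.166 CPM. TFPI2 passed the filter on low counts through the SM4 libraries alone, the group where it was high, so a difference was favoured by that choice. The difference of SM4 from NC was 1.56 on the log2 scale (SE 0.606, adjusted p = 0.0742, edgeR), which missed the threshold. With NC and SM4 alone in the fit the adjusted p was 0.0473, and without the filter it was 0.143. SM2 differed from NC by 0.30 (SE 0.697, adjusted p = 0.817, edgeR), with overlapping libraries.

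THBD encodes thrombomodulin, the surface receptor that turns thrombin toward activating protein C (ENSG00000178726.7, chr20:23045633-23049672). It stood at 81.6, 85.3 and 80.1 CPM in NC, 60.0, 57.0 and 62.1 CPM in SM2, and 55.7, 55.1 and 52.6 CPM in SM4. The groups did not overlap, with NC highest. THBD fell in SM2 by 0.46 on the log2 scale (SE 0.0497, adjusted p = 7.49e-07, edgeR). It fell in SM4 by 0.60 (SE 0.0496, adjusted p = 1.83e-08, edgeR), the most negative log2 fold change among the 8 genes tested. The difference of SM4 from SM2 was -0.13 (SE 0.0501, adjusted p = 0.0927, edgeR).

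PROCR encodes the receptor that presents protein C to the thrombin-thrombomodulin complex (ENSG00000101000.6, chr20:35172072-35216240). Its level was 9.58, 10.2 and 9.21 CPM in NC, 6.41, 6.41 and 6.89 CPM in SM2, and 8.36, 7.07 and 8.56 CPM in SM4. SM2 was the lowest group and NC the highest, without overlap. PROCR fell in SM2 by 0.56 on the log2 scale (SE 0.0986, adjusted p = 0.00028, edgeR). The call in SM4 was a narrow one, at -0.28 (SE 0.096, adjusted p = 0.0465, edgeR). Its adjusted p was above 0.05 in 9 of 17 alternatives, 6 of which left out NC replicate 1 (0.0901), 2 (0.182) or 3 (0.0561), SM2 replicate 2 (0.0527) or SM4 replicate 1 (0.0674) or 2 (0.208). SM4 stood above SM2 by 0.28 (SE 0.099, adjusted p = 0.0698, edgeR), which passed without SM4 replicate 2 (0.36, adjusted p = 0.0268).

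PROS1 encodes protein S, the cofactor of activated protein C and of TFPI (ENSG00000184500.16, chr3:93873051-93980003). It was at 1.48, 1.93 and 2.17 CPM in NC, 3.13, 2.85 and 2.47 CPM in SM2, and 3.26, 3.31 and 2.34 CPM in SM4. The highest NC library lay just under the lowest library of each other group. PROS1 rose in SM2 by 0.58 on the log2 scale (SE 0.181, adjusted p = 0.024, edgeR) and in SM4 by 0.67 (SE 0.178, adjusted p = 0.00961, edgeR). Without NC replicate 1 both calls were lost (0.45, adjusted p = 0.124, and 0.54, adjusted p = 0.0595). The call in SM2 was also lost without NC replicate 2 (0.0573), SM2 replicate 1 (0.0774) or SM2 replicate 2 (0.0604), and that in SM4 without SM4 replicate 1 (0.0515) or 2 (0.0541). The near-identical pseudogene PROS2P was listed at 0 counts in all 9 libraries, and how the counting shared reads between them is not given, so the level is uncertain. SM4 differed from SM2 by 0.08 (interval -0.28 to 0.44, adjusted p = 0.822, edgeR), with overlapping libraries.

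F2R encodes PAR1, the principal thrombin receptor (ENSG00000181104.7, chr5:76716126-76735770). It was at 77.0, 75.5 and 72.5 CPM in NC, 85.0, 77.6 and 81.5 CPM in SM2, and 74.3, 77.8 and 80.8 CPM in SM4. SM2 lay above NC without overlap, but by 0.12 on the log2 scale (SE 0.0499, adjusted p = 0.0994, edgeR), which did not pass. SM4 overlapped both groups and differed from NC by 0.05 (interval -0.05 to 0.15, adjusted p = 0.555, edgeR).

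F2RL1 encodes PAR2, which is cleaved by trypsin-like proteases and by the tissue factor complex rather than by thrombin (ENSG00000164251.5, chr5:76818933-76835315). Its level was 176, 173 and 171 CPM in NC, 155, 150 and 146 CPM in SM2, and 127, 134 and 127 CPM in SM4. The groups were ordered NC, SM2, SM4 with no overlap. F2RL1 fell in SM2 by 0.20 on the log2 scale (SE 0.0426, adjusted p = 0.00132, edgeR). It fell in SM4 by 0.42 (SE 0.0426, adjusted p = 2.89e-07, edgeR), and SM4 lay below SM2 by -0.22 (SE 0.0427, adjusted p = 0.0014, edgeR).

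**Figure D3:**
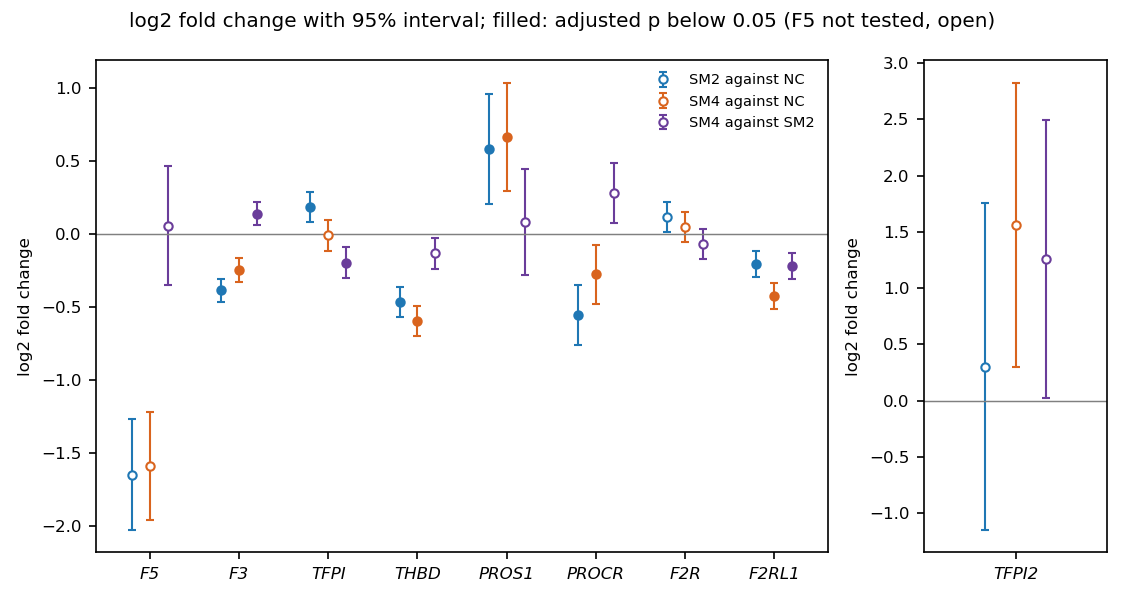
log2 fold changes of the 9 genes for SM2 and SM4, each against NC, and for SM4 against SM2 (points) with 95% intervals from the edgeR fit (bars), filled where called, TFPI2 on an axis of its own and F5 open because it was not tested. Against NC, F5 lies at -1.65 and -1.59, while F3, THBD, PROCR and F2RL1 lie between -0.60 and -0.20 and PROS1 above 0.

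Between SM2 and SM4, 3 of the 8 regulators were called (1 higher and 2 lower in SM4), at a background of 12.8% of all genes (6.04% higher, 6.76% lower). These were F3, TFPI and F2RL1. Without SM4 replicate 1 only F2RL1 was called, while 1574 of 20122 genes were called in all.

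Seen from SM4 instead of NC, the same fits give another picture. F5 was higher in NC than in SM4, while SM2 and SM4 overlapped. F3 was higher in NC and lower in SM2 than in SM4. THBD and PROCR were higher and PROS1 lower in NC, without a call in SM2, and TFPI was higher in SM2 without a call in NC. Of the 8 regulators tested, F2RL1 alone was called in the same direction in both, higher in NC and in SM2 than in SM4. Of all genes, 21.2% were called between SM4 and NC and 12.8% between SM4 and SM2. The share called in the same direction in both was not counted, so this number is a description. The sizes, errors and losses of calls are those given with each gene, with the sign turned, and both comparisons share the SM4 libraries.

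Per length of exon, the NC levels of the 9 genes ran over about 4 orders of magnitude. F3 stood first at 260 CPM per kb, followed by F2RL1 at 59.1 and THBD at 20.4 CPM per kb. F2R came next at 18.9 CPM per kb, and its libraries did not overlap those of THBD. PROCR and TFPI were at 5.70 and 5.69 CPM per kb, with overlapping libraries. F5 followed at 0.459 and PROS1 at 0.353 CPM per kb, where the lowest F5 library and the highest PROS1 library were both at 0.412, while TFPI2 was last at 0.0341. These lengths join all annotated exons, which spreads TFPI over 11714 bases. Over its canonical transcript of 3859 bases TFPI was at 17.3 CPM per kb, PROCR at 7.17 and PROS1 at 0.552, so the order among the middle and low genes depended on the length used.

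Sequences before the transcription start, from RefSeq on GRCh38.p14, were matched for 7 of the 9 genes, and THBD and F2R had no entry. The 250 bases upstream were searched on both strands for 5 motifs, none of which overlaps another here. The GC box, GGGCGG, was found in F3, TFPI2, PROS1, PROCR and F2RL1, which include genes that were lower and genes that were higher, and in 42.6% of 35116 promoters. The AP-1 motif TGAGTCA was found in F3, where its first base lies at -210, and in 4.20% of all promoters. The TATA box TATAAA was found on the opposite strand in F3, with its first base at -28, and in PROCR, at -82, and in 10.7% of all promoters. The CCAAT box (CCAAT; 32.0% of promoters) and the E-box CACGTG (6.34%) had no match in the 7. The windows of F3 and F5 are shown because both genes were lower in SM2 and SM4 than in NC yet they share none of these matches. F3 covers chr1:94541760-94542009 and F5 chr1:169586482-169586731, both on the minus strand, and capitals mark the AP-1, TATA box and GC box matches on either strand.
F3 promoter: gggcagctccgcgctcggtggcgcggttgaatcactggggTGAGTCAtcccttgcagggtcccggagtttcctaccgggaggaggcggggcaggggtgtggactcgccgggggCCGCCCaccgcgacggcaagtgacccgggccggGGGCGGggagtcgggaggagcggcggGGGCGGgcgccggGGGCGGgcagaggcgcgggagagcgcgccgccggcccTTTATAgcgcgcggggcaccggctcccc
F5 promoter: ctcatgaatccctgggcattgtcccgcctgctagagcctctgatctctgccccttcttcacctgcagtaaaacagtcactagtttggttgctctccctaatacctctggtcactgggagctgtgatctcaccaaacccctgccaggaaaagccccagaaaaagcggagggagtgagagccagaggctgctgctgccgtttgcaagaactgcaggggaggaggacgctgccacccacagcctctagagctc
The F3 window has 78.0% G and C, with 4 GC box matches, and the F5 window has 56.8% with no match. No match says only that these letters are not in this window.

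The genes whose pattern over the 9 libraries was most like that of F5 were sought among 13788 genes, by the root mean square difference of centred log2 CPM. The closest were KYNU (0.184), PTGS2 (0.220), AKR1C2 (0.258), IL1B (0.263) and CYP1B1 (0.289). Pearson's r with F5 over the 9 libraries, which share depth and group, was 0.961 for KYNU, 0.952 for PTGS2, 0.939 for AKR1C2, 0.941 for IL1B and 0.901 for CYP1B1. KYNU, an enzyme of tryptophan breakdown, was at 66.8 CPM in NC, 27.8 CPM in SM2 and 23.2 CPM in SM4. PTGS2, the inducible cyclooxygenase, was at 99.9, 37.2 and 33.0 CPM in the same order. AKR1C2 shares long stretches with AKR1C1 and AKR1C3, so its count is uncertain. Of the 8 regulators, THBD ranked closest to F5, at place 84, and PROCR came at place 202.

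A wider list of 56 genes of clotting, fibrinolysis and their partners was read beside these, of which 37 could be tested. In SM2 19 of the 37 were called (12 higher, 7 lower), and in SM4 16 (9 higher, 7 lower), where 22.3% and 21.2% of all genes were called. The median log2 fold change was 0.06 in SM2 and -0.02 in SM4. Between SM4 and SM2 16 were called, 8 in each direction, at a background of 12.8%. The list was drawn up with earlier results of these data known, so its counts are a description. Counts by role below stand beside the shares of all genes, 12% higher and 10.3% lower in SM2, and 11% and 10.2% in SM4. Each role holds few genes, so no role is read as changed. Rises and falls below are from NC, and from SM4 some genes read otherwise. Of the genes named below, ANXA5 and AXL were called higher in both NC and SM2 than in SM4. PLAT, FURIN and MERTK were called lower in both than in SM4. SERPINA5 and NQO1 were called higher in NC and lower in SM2 than in SM4. The AXL call between SM2 and SM4 held in 10 of 17 alternatives, and that of SERPINA5 in 14.

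**Figure D4:**
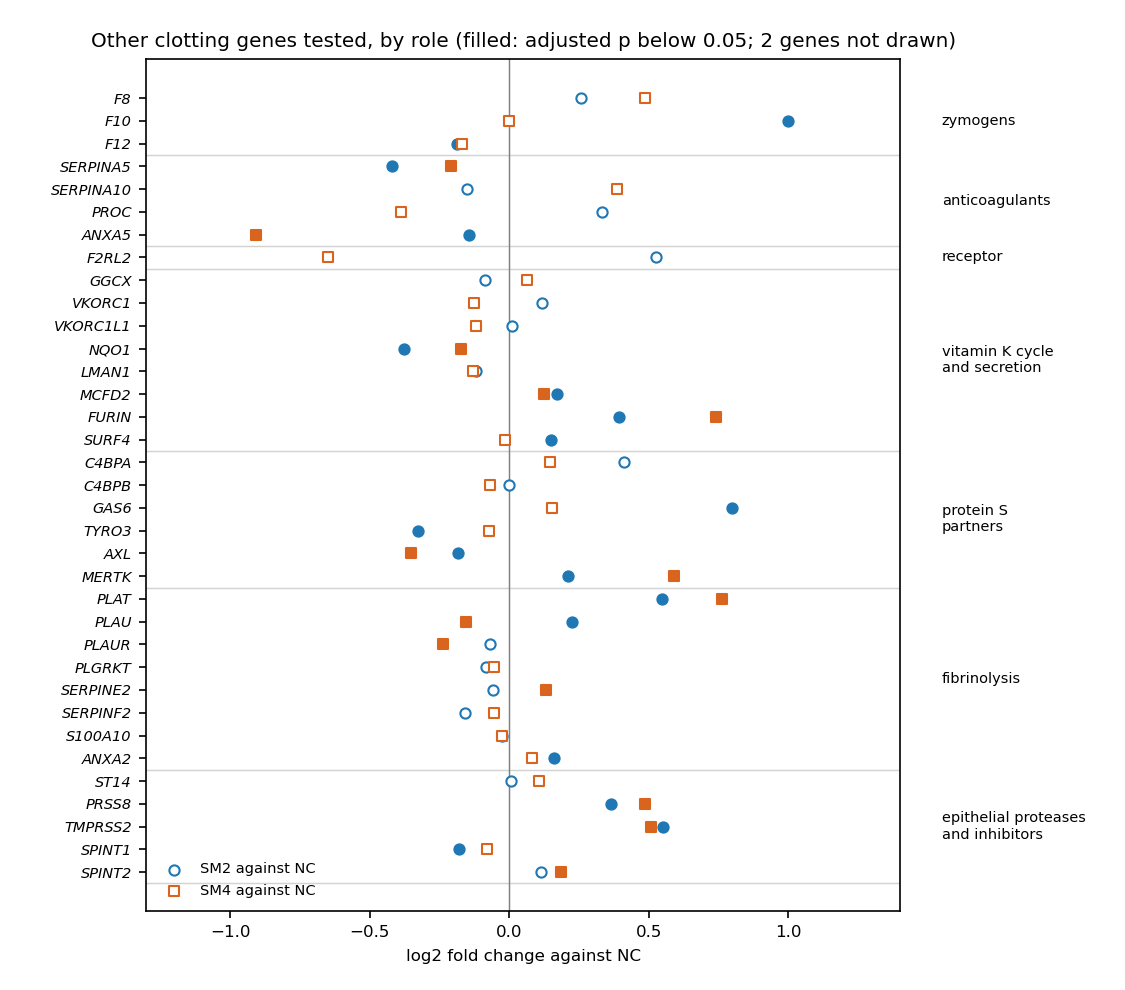
log2 fold changes of the tested genes of the wider clotting list against NC, grouped by role, in SM2 (circles) and SM4 (squares), filled where called, with 2 genes not drawn, one of them FGB because of its counts near 0 in NC. Calls lie on both sides of 0 in each comparison, and with the genes not drawn they number 12 higher and 7 lower in SM2 and 9 higher and 7 lower in SM4.

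Most liver-made zymogens were at or near 0 counts, and 4 of 15 zymogens and cofactors could be tested. F10, the zymogen of factor Xa, was at 1.00 ± 0.155 CPM in NC, 2.01 ± 0.242 CPM in SM2 and 1.00 ± 0.177 CPM in SM4 (SD, n = 3). It rose in SM2 alone of the comparisons with NC (1.00, adjusted p = 0.00152, edgeR) and was lower in SM4 than in SM2 (-1.0, adjusted p = 0.0025, edgeR). FGB, the fibrinogen beta chain, had 0, 0 and 1 counts in NC, 8, 9 and 6 counts in SM2, and 12, 19 and 10 counts in SM4. FGB too passed the filter through the SM4 libraries alone, where it was high, so a difference was favoured by that choice. It is among the genes counted as higher in both groups above. It was called higher in SM2 (adjusted p = 0.00239, edgeR) and SM4 (adjusted p = 0.000396, edgeR), and without the filter at 0.00142 and 7.74e-05. The ratio of summed counts to NC, scaled to depth, was 24.6 in SM2 (95% interval 3.99 to 1012) and 36.7 in SM4 (6.22 to 1483), which covers counting error only. F12, the contact factor zymogen, was at 21.3 CPM in NC and 18.7 CPM in SM2 (-0.19, adjusted p = 0.0398, edgeR), and the call was lost without NC replicate 1 (0.0704), 2 (0.0805) or 3 (0.135), SM2 replicate 1 (0.0646) or 2 (0.126), or SM4 replicate 1 (0.0566) or 3 (0.0516). In SM4 F12 was at 18.9 CPM, below NC without overlap, and did not pass (-0.17, adjusted p = 0.059, edgeR). SM4 differed from SM2 by 0.015 (adjusted p = 0.92, edgeR).

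Of the 7 anticoagulants, 4 could be tested and 2 were lower in both groups. ANXA5, which shields phospholipid from clotting factors, was at 209.6 ± 8.84 CPM in NC, 189.6 ± 6.41 CPM in SM2 and 111.8 ± 2.79 CPM in SM4 (SD, n = 3). Its fall was larger in SM4 (-0.91, adjusted p = 1.03e-11, edgeR) than in SM2 (-0.14, adjusted p = 0.0239, edgeR), a difference of -0.76 (adjusted p = 4.21e-10, edgeR). Seen from SM4, ANXA5 was thus called higher in both NC and SM2. The call in SM2 was lost without NC replicate 1 (adjusted p = 0.0933), NC replicate 2 (0.138) or SM2 replicate 2 (0.117). SERPINA5, the protein C inhibitor, was at 38.9, 29.1 and 33.6 CPM in NC, SM2 and SM4, and fell in SM2 by 0.42 (adjusted p = 8.86e-06, edgeR) and in SM4 by 0.21 (adjusted p = 0.00724, edgeR; 0.0517 without SM4 replicate 1). F2RL2, the one further thrombin receptor that could be tested of 2, was lower in SM4 than in SM2 (-1.17, SE 0.325, adjusted p = 0.0197, edgeR) and passed in neither comparison with NC, and it is named after its values were seen. Its counts were low, at 26, 31 and 26 in NC, 35, 34 and 44 in SM2, and 27, 21 and 12 in SM4. The F2RL2 call was not checked under the alternatives.

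All 8 genes of the vitamin K cycle and of clotting factor secretion were tested, with 3 higher and 1 lower in SM2 and 2 higher and 1 lower in SM4. FURIN, a proprotein convertase, rose from 137.6 ± 2.95 CPM in NC to 180.7 ± 5.91 CPM in SM2 (0.39, adjusted p = 3.41e-06, edgeR) and 230.1 ± 14.1 CPM in SM4 (0.74, adjusted p = 3.81e-10, edgeR). MCFD2, which with LMAN1 carries factor V and factor VIII out of the endoplasmic reticulum, rose in SM2 by 0.17 (adjusted p = 0.00501, edgeR). In SM4 MCFD2 was called at 0.12 (adjusted p = 0.0386, edgeR), a call lost without any one NC or SM4 library or SM2 replicate 2 (adjusted p from 0.0543 to 0.158). NQO1, a quinone reductase, fell in SM2 by 0.38 (adjusted p = 1.03e-06, edgeR) and in SM4 by 0.17 (adjusted p = 0.00448, edgeR).

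The 6 partners of protein S and protein C were all tested, with 2 higher and 2 lower in SM2 and 1 of each in SM4. GAS6, the protein S relative that binds the TAM receptors, was at 12.9 ± 0.508 CPM in NC, 22.4 ± 0.598 CPM in SM2 and 14.4 ± 0.979 CPM in SM4. It rose in SM2 (0.80, adjusted p = 8.24e-08, edgeR), while SM4 differed from NC by 0.15 (adjusted p = 0.155, edgeR) and from SM2 by -0.64 (adjusted p = 2.27e-06, edgeR). Among the TAM receptors, MERTK rose in SM2 by 0.21 (adjusted p = 0.00759, edgeR) and in SM4 by 0.59 (adjusted p = 6.35e-08, edgeR). AXL fell in SM2 by 0.18 (adjusted p = 0.0104, edgeR; 0.0785 without NC replicate 2) and in SM4 by 0.35 (adjusted p = 2.09e-05, edgeR). TYRO3, added after its values were seen, fell in SM2 by 0.33 (adjusted p = 0.000148, edgeR) and differed from NC in SM4 by -0.07 (adjusted p = 0.405, edgeR).

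In fibrinolysis 9 of 12 genes were tested, with 3 higher and none lower in SM2, and 2 higher and 3 lower in SM4. PLAT, tissue plasminogen activator, rose from 886 ± 24.1 CPM in NC to 1294 ± 2.90 CPM in SM2 (0.55, adjusted p = 2.66e-09, edgeR) and 1502 ± 63.9 CPM in SM4 (0.76, adjusted p = 1.66e-11, edgeR). PLAUR, the urokinase receptor, fell in SM4 by 0.24 (adjusted p = 0.00387, edgeR).

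Of 6 epithelial proteases and Kunitz inhibitors 5 were tested, with 2 higher and 1 lower in SM2 and 3 higher in SM4. TMPRSS2, a membrane serine protease, was at 23.5, 34.3 and 33.3 CPM in NC, SM2 and SM4 (0.55, adjusted p = 2.52e-06, and 0.51, adjusted p = 6.04e-06, edgeR). PRSS8, prostasin, rose in SM2 by 0.37 (adjusted p = 3e-05, edgeR) and in SM4 by 0.49 (adjusted p = 7.02e-07, edgeR). SPINT2, a Kunitz inhibitor of such proteases, rose in SM4 by 0.19 (adjusted p = 0.00411, edgeR; 0.0525 without NC replicate 1).

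Markers of cell types that make clotting proteins were read beside these values. Of 6 endothelial markers 2 reached 1 CPM, PECAM1 and ESAM, while CDH5 had at most 10 counts and KDR 0 counts in all 9 libraries. Their summed level was 22.1 to 23.7 CPM in NC, 20.9 to 21.8 CPM in SM2 and 29.1 to 31.2 CPM in SM4. PECAM1 averaged 5.48, 8.23 and 13.7 CPM and ESAM 17.4, 13 and 15.8 CPM in the same order, so the higher sum in SM4 came from PECAM1. Of 6 hepatocyte markers 1 reached 1 CPM, SERPINA1, ALB had at most 1 count and APOB 0, and the sum was 109 to 119 CPM in NC, 113 to 121 CPM in SM2 and 135 to 144 CPM in SM4. Of 6 megakaryocyte and platelet markers 3 reached 1 CPM, GP9 was at 0 counts, and the sum was 49.6 to 53.1, 112 to 128 and 43.3 to 45.3 CPM. The higher sum in SM2 came mainly from PPBP, at 47.8, 115 and 39.6 CPM on average, with ITGA2B at 1.09, 2.37 and 1.92 CPM. GP1BA averaged 2.44, 2.00 and 2.66 CPM, while PF4 had at most 2 counts and GP6 at most 10 counts. The 6 leukocyte markers, 2 of them at 1 CPM or more, summed to 41.4 to 45.3, 59.2 to 63.3 and 41.4 to 44.6 CPM, and the 6 fibroblast markers, 1 of them at 1 CPM or more, to 21.3 to 25, 22.6 to 27.3 and 22 to 24.8 CPM. The leukocyte sum was mostly LYZ, at 36.7, 51.9 and 32.7 CPM on average, with CD14 at 5.76, 8.48 and 10.3 CPM. PTPRC had at most 4 counts and CD3E at most 1 count. The 7 epithelial markers summed to 11244 to 11730 CPM in NC, 12567 to 13134 CPM in SM2 and 12160 to 12920 CPM in SM4. The keratins KRT8, KRT18 and KRT19 carried the higher sums, while CDH1 averaged 812.8, 682.4 and 631.1 CPM and EPCAM 706.7, 625.5 and 656.3 CPM in NC, SM2 and SM4. The part of these marker levels in the results above was not tested.

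TFPI, TFPI2, PROS1, PROCR, F2R and F2RL1 each overlap at least 1 gene on the opposite strand, and whether the counting used strand is not given. The partner of TFPI, CALCRL-AS1, was at 0.771 to 1.18 CPM on average over the groups. For PROCR, MMP24OS was at 61.5 to 71.8 CPM, with exons that do not overlap those of PROCR. ENSG00000278367, whose exons do overlap those of PROCR, reached at most 0.0171 CPM. The partners of PROS1, RNU6-511P and a Y RNA, were at 0 CPM and do not overlap its exons.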

How the data were processed

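RNA of 9 OVCAR5 libraries (NC, SM2 and SM4, n = 3 each) was sequenced. The authors deposited raw counts per gene, without normalization. By the study's methods, the authors aligned reads to hg38 with hisat2 and counted them with Subread, while the labels add fastp and name another kit and read layout. Versions, annotation and strand use are not given in the sources used here, so antisense reads cannot be told apart. Groups were taken from library titles, and 0 columns were unused.

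In R 4.3.3 with edgeR 4.0.16, filterByExpr kept 19674 of 60649 genes. Counts were scaled with TMM factors of 0.989 to 1.01. Genes were tested, two-sided, with the quasi-likelihood F test on all 9 libraries with group as the single term, and p-values were adjusted by Benjamini-Hochberg over all genes tested, with calls at adjusted p below 0.05. Log2 fold changes are from that fit, with SE and 95% intervals, and errors of CPM are SD. The common biological coefficient of variation was 0.0587, and totals of 44103272 to 63693728 counts set the precision, with intervals on summed counts that cover counting error only. The script was tested on simulated data.

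Of the identifiers, 60463 matched GENCODE v44 (GRCh38), which gave symbols, coordinates and transcripts, and promoter sequences came from RefSeq. Genes of the wider list were named by role, up to 3 per role with the largest changes among those called, of which 1 is not reported here. Genes like F5 were the 5 with the smallest difference at a pseudocount of 0.5 CPM. The genes and lists were chosen with earlier results of these data known. Alternatives were DESeq2 1.42.0, other scaling factors, filters and thresholds, a replicate block, the compared groups alone and leaving out each library. Replicate numbers were not taken as pairs.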

Additional observations from a re-analysis of the deposited data

Results flagged for a closer look

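In all, 3 of the 8 regulators were called between SM2 and SM4 in a direct test. The call of F2RL1 held in all 17 alternatives, while those of F3 and TFPI were lost without some single libraries. F3 was higher in SM4 than in SM2 by 0.14 on the log2 scale. TFPI was lower in SM4 than in SM2 (-0.19), and so was F2RL1 (-0.22). The values per library and the adjusted p-values of edgeR stand with each gene above, and the groups have 3 libraries each, too few for a test of single libraries that stand apart.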

How the results depend on the processing

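The 8 regulators were called in numbers of 4 to 6 in SM2, 3 to 6 in SM4 and 1 to 3 between SM4 and SM2 over 17 alternatives. Calls over all genes ran from 2775 to 4693, 2646 to 5431 and 1393 to 2815 in the same order. Leaving out single libraries gave 3 to 5 regulators called in SM4 (3 without NC replicate 1, SM4 replicate 1 or SM4 replicate 2) and 1 to 3 between SM4 and SM2 (1 without SM4 replicate 1). At an adjusted p below 0.01 there was 1 call between SM4 and SM2, and 2775, 2646 and 1393 of all genes were called in SM2, SM4 and between them. Leaving out SM4 replicate 1 left 1574 genes called between SM4 and SM2.

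Signs turned where values were near 0. F5 in SM4 against SM2 was -0.093 without SM2 replicate 1 and -0.020 without SM4 replicate 1, between -0.093 and 0.26 over single libraries. TFPI in SM4 was 0.0097 with upper-quartile factors, 0.013 without NC replicate 2 and 0.0029 without SM4 replicate 1, with a lowest value of -0.032. TFPI2 in SM2 was -0.10 without NC replicate 3 and -0.21 without SM2 replicate 2, with a highest value of 1.03. PROS1 in SM4 against SM2 was -0.0045 without SM2 replicate 3 and -0.0016 without SM4 replicate 2, with a highest value of 0.22. F10 in SM4 against NC was 0.0020 with DESeq2, 0.0014 with DESeq2 size factors, 0.017 with upper-quartile factors, 0.0017 without a filter, 0.0046 at a mean of at least 1 CPM and 0.0065 with the replicate block. Without single libraries F10 was 0.056 (NC replicate 2), 0.066 (NC replicate 3), 0.00031 (SM2 replicate 2), 0.0020 (SM2 replicate 3), 0.040 (SM4 replicate 2) and 0.093 (SM4 replicate 3), with a lowest value of -0.15 (SM4 replicate 1). The cause was not tested.

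The call of PROCR in SM4 was lost with DESeq2 (adjusted p = 0.0553), upper-quartile factors (0.0687) and no filter (0.0802). Deviations of libraries with the same number correlated at -0.105 to 0.166, over 0.1 in 5 of 9 pairs against 1 of 18 pairs with different numbers. No label ties a number to a shared culture or day, so the numbers were not taken as pairs. Whether some libraries of the same number share a batch was not tested. The replicate block left 6, 5 and 3 regulators called in SM2, SM4 and between them. Low counts limit F5, PROS1, TFPI2, FGB and F2RL2, and the length used for levels per kb was varied after the data were seen.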

Other observations

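Low counts outside the tests held 2 further patterns, chosen after their values were seen and given with no test. F13A1, the A chain of the fibrin cross-linking factor XIII, had 18, 6 and 5 counts in NC, 2, 2 and 5 counts in SM2 and 0 counts in each SM4 library, which allows up to 3 counts per library. HPN, the membrane protease hepsin, had 0, 0 and 4 counts in NC, 5, 17 and 7 counts in SM2 and 2, 16 and 8 counts in SM4.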
